A study of Homo sapiens with 114 samples.

Results

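HK-2 cells kept as controls for 72 h were compared with HK-2 cells kept as controls for 24 h, in the cultures that served as controls for the compound Ota. The comparison rests on 6 arrays, 3 at each time, which are 2 of the 38 groups of 3 arrays in the study, chosen by the description label of each array. HK-2 is an immortalized epithelial line from the human kidney proximal tubule, the nephron segment that takes back most filtered solute. The study exposed it to 9 compounds, known here by the abbreviations of the labels, to find expression signatures of kidney toxicity, and hybridized total RNA to 1-colour Affymetrix arrays.

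Both groups received vehicle in place of compound, and the vehicle is not named. Cells were plated 24 h before the clock started, at 700000 cells in 2 ml per well, and exposure began at about 90% confluency. The medium held 5 mM glucose, 10 ng/ml EGF, 36 ng/ml hydrocortisone, insulin, transferrin and selenite, and no serum is listed. Whether it was renewed between 24 and 72 h is not given in the sources used here. Time in culture, age of the medium and cell density therefore cannot be told apart. Further groups of 3 arrays are set beside these. They are HK-2 cells given the low dose of Ota for 72 or 24 h, and vehicle controls of 5 other control series. Aa controls, and those of Nnm with Kbr, were harvested at 48 or 24 h. Controls of CsA (labelled lab 3), of Fk with Ra, and of CdCl with Di were harvested at 48 or 12 h. HK-2 cells given the high dose of Ota for 72 or 24 h enter only the fit described below.

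Several circuits read the state of a culture. The integrated stress response starts with kinases that sense missing amino acids or misfolded protein, and works through the transcription factor ATF4, which raises amino acid synthesis, amino acid import and tRNA charging. The unfolded protein response starts in the endoplasmic reticulum (ER) with the sensors PERK, IRE1 and ATF6, and raises ER chaperones. Division genes, by contrast, are written by E2F factors before DNA synthesis and by the MuvB complexes before mitosis, and are shut off when cells leave the cycle.

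Levels are log2 values as deposited, so 1 unit is a 2-fold difference, and the 6 arrays span 0.83 to 16.1. Their 10th percentile is 2.12, and levels under 4 are treated here as background. Changes are 72 h minus 24 h, with the standard error of limma, fitted to the 18 arrays of the Ota series. These are the controls, the low-dose and the high-dose cultures at 24 and 72 h, and all of them set the variances and the genes tested. Means carry the SD of 3 arrays. Calls rest on an adjusted p under 0.05, by the method of Benjamini and Hochberg over every gene tested.

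The 6 arrays were alike in overall signal. Between 40.0% and 40.2% of probe sets exceeded log2 4 at 72 h, against 39.7% to 40.1% at 24 h. RNA integrity was read from ACTB, whose 3 prime control probe set exceeded its 5 prime one by 1.16, 1.51 and 1.42 at 72 h and 1.08, 0.993 and 1.42 at 24 h, so the groups overlapped. Pearson correlations across probe sets, which are not independent replicates, ran from 0.9939 to 0.9972 within a time and from 0.9833 to 0.9874 between times. All 6 pan-epithelial markers exceeded log2 4 at both times, with EPCAM at 13.8 at 72 h and 13.2 at 24 h. Of 15 proximal tubule markers analysed only SLC3A1, DPP4, CDH6 and PAX8 exceeded log2 4, while CUBN, LRP2, SLC34A1, SLC5A2, SLC22A6, SLC22A8, AQP1, ANPEP, MME and GGT1 stood between 2.12 and 3.51 at both times. Markers of distal nephron, endothelium and leukocytes were below 4 at both times, without exception among 6, 6 and 5 analysed. Of 4 podocyte markers analysed, NPHS1 and WT1 were below 4. PODXL (4.73 at 72 h, 4.98 at 24 h) and PLA2R1 (4.51 at 72 h, 4.42 at 24 h) stood just above it. Of 7 fibroblast markers 3 exceeded log2 4 at both times. They were DCN (9.89 at 72 h, 11.56 at 24 h), LUM (7.51 at 72 h, 9.35 at 24 h) and COL1A1 (7.61 at 72 h, 8.62 at 24 h).

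Between 24 and 72 h these control cultures changed in 28.8% of the genes tested. limma called 3213 of 11138 genes, 1511 (13.6%) higher and 1702 (15.3%) lower at 72 h, and the change reached 2-fold in 1211 genes (10.9%). The median difference over all genes tested was −0.00665. In 5909 genes (53.1%) the 3 arrays at 72 h lay outside the range of the 3 at 24 h. The 5 largest rises were those of ATF3, INHBE, DDIT3, ALDH1L2 and ERO1B, between 4.49 and 5.57. The 5 largest falls were those of TXNIP, the neuropeptide gene GAL (−4.53), MCM10, the sodium channel gene SCN3A (−3.97) and the helicase gene BLM (−3.31).

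**Figure D1:**
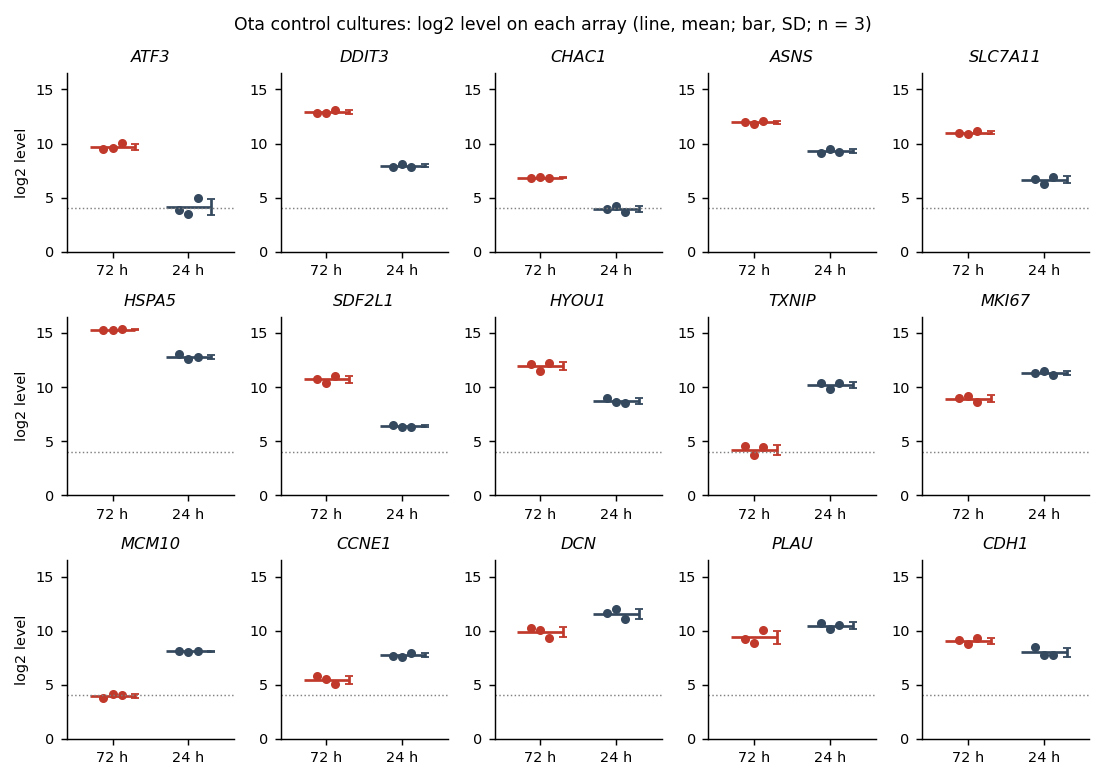
Log2 level of 15 genes on each of the 6 arrays, 72 h in red on the left of each panel and 24 h in dark blue on the right. Points are arrays, horizontal lines are means, error bars are SD (n = 3) and the dotted line marks log2 4; TXNIP and MCM10 lie near that line at 72 h, ATF3 and CHAC1 near it at 24 h, and in each panel the 2 groups do not overlap.

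Stress transcription factors led the rises. ATF3, an activator and repressor of the AP-1 kind that is induced by many stresses, stood at 9.47, 9.56 and 10.04 at 72 h, against 3.88, 3.50 and 4.97 at 24 h. At 24 h 2 arrays were under log2 4, so the floor limits the size of the difference, which was 5.57 ± 0.37 (adjusted p = 1.1e-07). DDIT3, which encodes the transcription factor CHOP, stood at 12.82, 12.80 and 13.10 at 72 h, against 7.88, 8.09 and 7.82 at 24 h. This rise of 4.97 ± 0.43 (adjusted p = 8.63e-07) corresponds to about 31-fold, and it started from a level well above background.

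INHBE, a secreted inhibin beta chain, stood at 11.77, 11.80 and 12.09 at 72 h and at 6.60, 6.03 and 6.41 at 24 h, a difference of 5.54 ± 0.39 (adjusted p = 1.55e-07). GDF15, a circulating stress hormone, averaged 12.17 ± 0.50 at 72 h and 9.97 ± 0.088 at 24 h, and STC2, a stanniocalcin, averaged 7.50 ± 0.17 at 72 h and 4.49 ± 0.19 at 24 h. The arrays of the groups did not overlap for either gene.

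Of 28 genes listed as ATF4 or its targets, 26 rose and 0 fell, with a median difference of 1.72 against −0.00665 for all genes tested. The share called higher over all genes was 13.6%. ATF4 itself, the hub of the pathway, rose by 1.52 ± 0.12 to 13.74 at 72 h, against 12.22 at 24 h. Amino acid enzymes followed. ASNS, asparagine synthetase, stood at 11.99, 11.80 and 12.04 at 72 h and at 9.16, 9.51 and 9.23 at 24 h, a difference of 2.65 ± 0.24 (adjusted p = 1.23e-06). ALDH1L2, a mitochondrial folate enzyme, rose by 4.57 ± 0.46 to 8.79, against 4.22 at 24 h, close to background. CHAC1, which degrades glutathione, rose by 2.90 ± 0.42 from background, TRIB3, a pseudokinase, by 2.05 ± 0.18 and PCK2, mitochondrial phosphoenolpyruvate carboxykinase, by 1.70 ± 0.25. The feedback phosphatase subunit PPP1R15A (GADD34) rose by 1.55 ± 0.23. The pair that missed the threshold were VLDLR, with 0.31 (adjusted p = 0.453), and SLC38A2, with 0.35 (adjusted p = 0.084).

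The ASNS promoter holds a match to a site through which this pathway is known to act. Whether the site had a part in the rise of ASNS was not tested. The CEBP-ATF composite element, searched as TGATGNAA on both strands of the 250 bases before each gene's start in RefSeq promoters (GRCh38.p14), lay in 3 of 24 promoters of this list (ATF3, ASNS and CHAC1, 12.5%) and in 3.19% of all 27305 promoters. The stretch of 150 bases at chr7:97872409-97872558, minus strand, carries it in capitals, beginning 68 bases before the start.
ASNS: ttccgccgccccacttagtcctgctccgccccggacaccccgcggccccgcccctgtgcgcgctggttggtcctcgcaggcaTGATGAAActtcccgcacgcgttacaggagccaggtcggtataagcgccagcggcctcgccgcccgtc

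Amino acid carriers and tRNA charging enzymes moved the same way. SLC7A11, which imports cystine for glutathione, stood at 10.98, 10.89 and 11.16 at 72 h, against 6.74, 6.28 and 6.89 at 24 h, a difference of 4.38 ± 0.27 (adjusted p = 8.58e-08). Its partner chain SLC3A2 rose by 2.62 ± 0.22, and the leucine carrier SLC7A5 by 2.90 ± 0.32. Against 13.6% of all genes called higher and 15.3% lower, 8 of 17 amino acid carriers rose and 1 fell. That exception was SLC6A6, the taurine carrier, which averaged 9.32 ± 0.16 at 72 h and 11.39 ± 0.089 at 24 h (difference −2.07 ± 0.14). Against the same shares, 10 of 15 tRNA synthetases rose and 0 fell, with a median of 0.71. WARS1 rose by 2.30 ± 0.21, AARS1 by 1.96 ± 0.24, SARS1 by 1.72 ± 0.19 and GARS1 by 1.40 ± 0.15. The remaining 5 included LARS1, with 0.14 (adjusted p = 0.601), RARS1, with −0.08 (adjusted p = 0.803), and KARS1, with −0.10 (adjusted p = 0.609).

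ER folding genes rose most as a group. Of 20 ER chaperones and regulators 19 rose, 0 fell, and the median difference was 2.32, the largest among the 41 lists examined. Over all genes 13.6% were called higher. HSPA5, the BiP chaperone that also holds the ER stress sensors inactive, stood at 15.29, 15.24 and 15.33 at 72 h and at 13.02, 12.62 and 12.75 at 24 h. Its difference of 2.49 ± 0.19 (adjusted p = 4.14e-07) ended near the top of the deposited scale, which reaches 16.1. SDF2L1, an ER protein that works with BiP, stood at 10.79, 10.39 and 11.02 at 72 h, against 6.52, 6.32 and 6.35 at 24 h (difference 4.34 ± 0.28, adjusted p = 9.81e-08). The groups did not overlap for either gene.

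Regulators come first. ERN1, which encodes the sensor IRE1, rose by 3.98 ± 0.27 to 10.73, against 6.75 at 24 h, and XBP1, the factor whose RNA IRE1 splices, by 2.04 ± 0.30. The arrays do not separate spliced from unspliced XBP1. CRELD2, a secreted ER protein, rose by 3.41 ± 0.26, HYOU1, a BiP exchange factor, by 3.25 ± 0.26, HERPUD1, a component of ER-associated degradation, by 3.09 ± 0.23 and DNAJB9, a BiP cofactor, by 3.07 ± 0.27. DNAJC3, an inhibitor of eIF2 kinases, rose by 2.80 ± 0.28 and HSP90B1, the ER form of HSP90, by 2.06 ± 0.19. ERO1B, an ER oxidase, averaged 9.01 ± 0.39 at 72 h and 4.52 ± 0.42 at 24 h. CALR, a lectin chaperone, had a difference of 0.49 (adjusted p = 0.073).

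Promoters of this list carry ER stress elements, to which ATF6 and the CCAAT-binding factor NF-Y bind. The first element, CCAAT and CCACG with 9 bases between them, lay in 6 of 19 promoters of the list (HSPA5, HSP90B1, CALR, CANX, CRELD2 and XBP1) and in 0.0806% of all. The second, ATTGG and CCACG with 1 base between them, lay in 3 of 19 (SDF2L1, HERPUD1 and HYOU1) and in 0.0513% of all. One or other was found in 47.4% of the list and in 0.132% of all promoters, both strands searched over 250 bases. CALR holds the element although its change missed the threshold. The list was chosen with earlier results known, so these shares only describe it. Whether the elements had a part in the rises was not tested. Capitals mark the element in 3 windows of 150 bases, on GRCh38.p14: HSPA5 at chr9:125241344-125241493 (minus strand), CRELD2 at chr22:49918484-49918633 (plus strand, with the element on the opposite strand) and HERPUD1 at chr16:56931992-56932141 (plus strand).
HSPA5: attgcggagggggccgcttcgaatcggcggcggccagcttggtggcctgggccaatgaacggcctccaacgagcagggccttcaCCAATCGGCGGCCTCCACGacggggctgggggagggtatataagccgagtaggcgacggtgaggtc
CRELD2: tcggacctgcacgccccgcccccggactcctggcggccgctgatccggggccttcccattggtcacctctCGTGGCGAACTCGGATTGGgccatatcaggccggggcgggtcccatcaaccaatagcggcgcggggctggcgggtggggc
HERPUD1: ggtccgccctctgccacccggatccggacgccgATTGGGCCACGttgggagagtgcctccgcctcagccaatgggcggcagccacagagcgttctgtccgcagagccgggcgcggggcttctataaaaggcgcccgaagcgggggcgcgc

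Other rises of the same size had no list. SCG5, a chaperone of prohormone convertase, stood at 6.97, 6.22 and 6.53 at 72 h, against 2.38, 2.70 and 2.39 at 24 h, and LAMP3, a lysosomal membrane protein, at 5.95, 5.70 and 6.58 at 72 h, against 2.32 on all 3 arrays at 24 h. Both were at background at 24 h. LURAP1L rose by 3.74 ± 0.48, DNAJC12, a cochaperone, by 3.72 ± 0.43, CADPS2, a factor of dense-core vesicle release, by 3.57 ± 0.36 and BEX2 by 3.46 ± 0.25.

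Heat shock genes of the cytosol did not share the rise of the ER list. Of 16 tested 1 rose (DNAJB4, by 0.57 ± 0.14) and 5 fell, or 37.5% called against 28.8% of all genes. Lower members included HSPB1, by 0.54 ± 0.18 on the log2 scale, and STIP1, an HSP90 cochaperone, by 0.64 ± 0.14. HSPA4 was also lower on its main probe set, by 0.75 ± 0.11, but its difference was 0.44 (adjusted p = 0.229) on the probe set left when those with the suffixes _x_at and _s_at were dropped. HSP90AA1, the stress-inducible HSP90, had a difference of −0.24 (adjusted p = 0.164). Of 23 proteasome subunits 11 fell and 0 rose, against 15.3% of all genes called lower, and 6 fell without probe sets of those suffixes. The falls include PSMB3, lower by 1.16 ± 0.21 on the log2 scale, and PSMD1, by 0.96 ± 0.10.

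TXNIP had the largest fall on the deposited scale. It encodes an arrestin-like protein that binds thioredoxin and limits glucose uptake, and its transcription follows intracellular glucose. The levels were 4.53, 3.69 and 4.41 at 72 h, against 10.36, 9.85 and 10.39 at 24 h, a difference of −5.99 ± 0.34 (adjusted p = 3.57e-08). At 72 h 1 array was under log2 4 and the others just above it, so the size of the fall is limited by the floor of the scale. ARRDC4, its nearest relative and likewise driven by glucose, averaged 3.11 ± 0.16 at 72 h and 4.44 ± 0.58 at 24 h (difference −1.33 ± 0.40, adjusted p = 0.0196). The carbohydrate response element to which the glucose-sensing factors MondoA and ChREBP bind, a repeat of CACGNG with 5 bases between its copies, occurs in 16 of 27305 promoters, TXNIP among them. It stands in capitals in the window at chr1:145996580-145996729, minus strand, of GRCh38.p14, and begins 88 bases before the start. Whether glucose or this element had a part in the falls of TXNIP and ARRDC4 was not tested.
TXNIP: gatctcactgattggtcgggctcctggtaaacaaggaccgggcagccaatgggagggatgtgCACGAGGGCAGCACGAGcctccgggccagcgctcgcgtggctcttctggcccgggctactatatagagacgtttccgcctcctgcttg

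Sugar metabolism genes were split. Of 33 glycolysis and hypoxia genes 6 rose and 13 fell, against 13.6% and 15.3% of all genes, or 3 and 5 without probe sets of the suffixes _x_at and _s_at. The glycolytic enzymes GPI, PKM, PGAM1 and TPI1 fell by 1.12 ± 0.15, 1.24 ± 0.17, 1.06 ± 0.11 and 0.99 ± 0.17, and HK1 by 1.29 ± 0.19, while HK2, a second hexokinase, rose by 0.90 ± 0.22. Among hypoxia-responsive members, EGLN3, an oxygen-sensing hydroxylase, stood at 2.86, 3.28 and 2.56 at 72 h, against 6.21, 5.50 and 6.69 at 24 h. VEGFA, the angiogenic growth factor and also an ATF4 target, averaged 11.81 ± 0.21 at 72 h and 9.95 ± 0.37 at 24 h. NDRG1 rose by 1.13 ± 0.20 and ANKRD37 by 1.10 ± 0.28, and GAPDH had a difference of −0.14 (adjusted p = 0.614).

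Of 13 genes of fatty acid synthesis and lipid droplets 8 fell and 0 rose, or 4 and 0 without probe sets of the suffixes _x_at and _s_at. Over all genes 15.3% were called lower. FASN, fatty acid synthase, stood at 7.83, 7.70 and 7.48 at 72 h, against 9.46, 9.70 and 9.10 at 24 h (difference −1.74 ± 0.34, adjusted p = 0.00114). SREBF1, its regulator, fell by 0.96 ± 0.20 and ELOVL6, a fatty acid elongase, by 1.29 ± 0.30. Of 19 cholesterol synthesis genes 4 fell (EBP, ACAT2, FDPS and LSS, by 0.68 to 0.88) and 0 rose, or 21.1% called, below the 28.8% of all genes, and 8 of the 19 differences were positive. Of 23 respiratory chain subunits 11 fell and 0 rose, against 15.3% of all genes called lower, with a median of −0.33. UQCRC1 and SDHA were each lower by 0.94, with standard errors of 0.25 and 0.16.

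Mitosis genes fell without exception. All 30 tested were lower at 72 h, with a median difference of −1.81, against a background of 15.3% of genes called lower. MKI67, the proliferation antigen Ki-67, stood at 8.96, 9.21 and 8.58 at 72 h and at 11.33, 11.51 and 11.14 at 24 h, a difference of −2.41 ± 0.22 (adjusted p = 1.65e-06). KIF20A, a mitotic kinesin, fell by 2.33 ± 0.19, DLGAP5, a spindle protein, by 2.19 ± 0.22, the kinase PLK1 by 2.13 ± 0.24 and the centromere motor CENPE by 2.10 ± 0.21. CCNB1 and CDK1, the cyclin and kinase that drive entry into mitosis, fell by 1.91 ± 0.26 and 1.51 ± 0.19. The kinetochore gene SPC25 and the condensin gene NCAPH fell by 3.04 ± 0.38 and 3.27 ± 0.22. In RNA of whole cultures, fewer dividing cells and less RNA per dividing cell cannot be told apart. At 72 h MKI67 and CCNB1 (mean 10.15) remained far above background.

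DNA replication genes fell with them. Of 35 tested 31 fell and 0 rose, against 15.3% of all genes called lower, with a median of −1.39. MCM10, which activates the replicative helicase, stood at 3.78, 4.16 and 4.02 at 72 h, against 8.16, 8.05 and 8.10 at 24 h, a difference of −4.11 ± 0.15 (adjusted p = 2.57e-10). Its 72 h arrays lie at about log2 4, and this adjusted p is the smallest of the 11138 genes tested. The helicase subunits MCM6 and MCM2 fell by 1.39 ± 0.13 and 1.07 ± 0.16, and stayed at 10.70 and 11.20 at 72 h. PCNA, the polymerase clamp, fell by 1.48 ± 0.16, TK1, thymidine kinase, by 2.44 ± 0.26, the origin factor ORC1 by 2.72 ± 0.35 and CDC45, a helicase partner, by 2.18 ± 0.18. Members not called were CDC6 (−0.40, adjusted p = 0.484), CDT1 (−0.52, adjusted p = 0.089), RFC5 (0.06, adjusted p = 0.877) and PRIM1 (0.14, adjusted p = 0.653). RFC5 had a difference of −0.93 (adjusted p = 0.00432) over the mean of all its probe sets.

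Cyclins of G1 and their controllers showed the same lean with more exceptions. Of 23 tested 12 fell and 1 rose, or 56.5% called against 28.8% of all genes. CCNE1, the cyclin that starts S phase, averaged 5.45 ± 0.37 at 72 h and 7.72 ± 0.19 at 24 h (difference −2.26 ± 0.31), and CCNE2 fell by 1.85 ± 0.20. The transcription factors MYBL2, E2F8 and E2F2 fell by 2.50 ± 0.21, 2.79 ± 0.25 and 1.85 ± 0.23. CCNG1 was the member that rose, by 0.42 ± 0.13, a call lost without the second or the third 72 h array, and without the first or the second 24 h array. CDK4 did not pass the test (−0.01, adjusted p = 0.982), nor did the inhibitors CDKN1A (0.46, adjusted p = 0.087) and CDKN1B (0.34, adjusted p = 0.2).

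Letters of the known cell cycle elements were common in these promoters. TTTGAA, the cell cycle homology region read by MuvB complexes, lay in 13 of 25 mitosis promoters (52.0%) and in 13.6% of all 27305. E2F sites, searched as TTTCCCGC, TTTCGCGC, TTTGCCGC and TTTGGCGC, lay in 11 of 30 replication promoters (36.7%) and in 2.79% of all. Both lists were chosen with earlier results known, so these shares only describe them. Whether the elements had a part in the falls was not tested. The windows shown are CDC20, an activator of the anaphase complex that fell by 1.89 ± 0.21, at chr1:43358831-43358980 (plus strand), with the element 65 bases before the start, and MCM6 at chr2:135876444-135876593 (minus strand), with 3 E2F matches, of which the last 2 overlap on opposite strands.
CDC20: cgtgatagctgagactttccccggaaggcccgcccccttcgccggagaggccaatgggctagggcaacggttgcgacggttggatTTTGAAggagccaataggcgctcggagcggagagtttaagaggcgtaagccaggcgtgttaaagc
MCM6: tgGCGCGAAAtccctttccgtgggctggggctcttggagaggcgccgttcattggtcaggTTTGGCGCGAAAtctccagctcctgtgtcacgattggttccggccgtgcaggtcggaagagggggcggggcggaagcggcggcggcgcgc

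**Figure D2:**
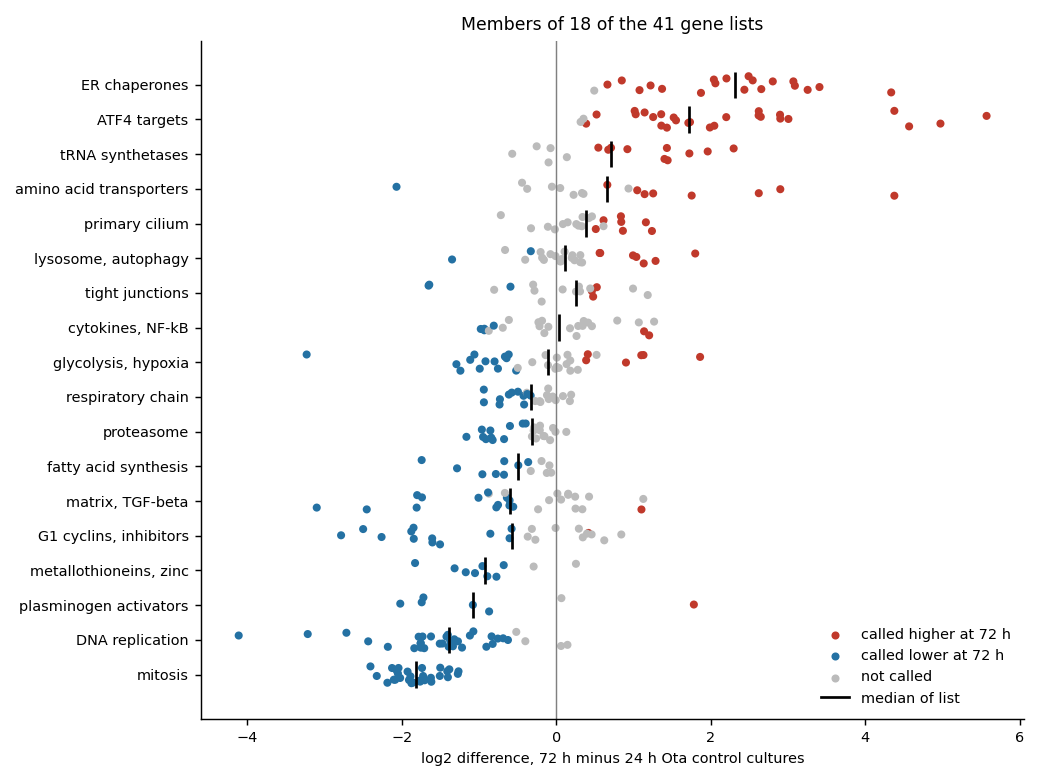
Log2 difference, 72 h minus 24 h, of every tested member of 18 of the 41 gene lists, chosen for display. Points are genes, coloured by whether they were called higher, lower or neither, and black bars are list medians; ER chaperones and ATF4 targets lie to the right (medians 2.32 and 1.72), replication and mitosis to the left (−1.39 and −1.81).

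Of 27 genes of the matrix and the TGF-beta pathway 13 fell and 1, the ligand BMP4, rose, by 1.10 ± 0.22 from background. Thus 51.9% of the list was called, against 28.8% of all genes. The collagenase MMP1 stood at 2.93, 2.77 and 2.96 at 72 h, against 5.36, 7.37 and 5.24 at 24 h, and the matrilysin MMP7 fell by 2.46 ± 0.18. TGFBI, a TGF-beta-induced matrix protein, fell by 1.80 ± 0.22 and LTBP2, a latent TGF-beta binding protein, by 1.74 ± 0.32. Without the first array at 24 h, 8 of the list fell rather than 13. The count was 9 without the first, the second or the third 72 h array, or without the third 24 h array. It was 12 without the second 24 h array. FN1, fibronectin, had a difference of 0.01 (adjusted p = 0.975).

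Genes used as fibroblast markers moved with this list. DCN, decorin, stood at 10.25, 10.09 and 9.34 at 72 h, against 11.64, 11.98 and 11.05 at 24 h, LUM, lumican, fell by 1.84 ± 0.23 and COL1A1 by 1.01 ± 0.35. The summed linear level of 7 such markers was 1080 to 1670 at 72 h and 3380 to 4870 at 24 h. Of these 7, COL1A2, COL3A1, PDGFRA and PDGFRB were at background at both times. What part this played in the fall of matrix genes was not tested.

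Among 7 genes of plasminogen activation 5 fell and 1 rose, or 85.7% called against 28.8% of all genes. In a fit of all arrays of the study 3 fell, and 1 fell without probe sets of the suffixes _x_at and _s_at. PLAUR, the urokinase receptor, stood at 3.95, 4.96 and 4.99 at 72 h, against 6.36, 6.15 and 6.55 at 24 h, urokinase itself (PLAU) fell by 1.08 ± 0.26, and the inhibitor SERPINE2 by 2.02 ± 0.21. F3, tissue factor, rose by 1.78 ± 0.39. Of 10 metallothionein and zinc genes 8 fell and 0 rose, against 15.3% of all genes called lower. MT2A stood at 13.60, 13.52 and 13.45 at 72 h, against 14.49, 14.55 and 14.40 at 24 h, and MT1M fell by 1.83 ± 0.19. Metallothionein genes are near copies of each other, and 2 of them were called without probe sets of the suffixes _x_at and _s_at, so single members are uncertain.

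Epithelial genes were split. Of 6 pan-epithelial markers CDH1 and EPCAM rose, and KRT8 (−0.73), KRT18 (0.27), KRT19 (−0.38) and KRT7 (0.38) were not called. CDH1, E-cadherin, stood at 9.10, 8.75 and 9.31 at 72 h, against 8.47, 7.75 and 7.79 at 24 h (difference 1.05 ± 0.29, adjusted p = 0.0118). ESRP1, which directs epithelial splicing, rose by 2.16 ± 0.25 (adjusted p = 1.1e-05) and EPCAM by 0.57 ± 0.15. Of 11 cadherin and EMT genes 2 rose and 2 fell, and VIM and CDH2 were among those not called, with −0.31 and 0.06. Among 17 tight junction genes 3 rose (CLDN4, MARVELD2 and CLDN3, by 0.46 to 0.52) and 3 fell. CLDN2, the leaky claudin of the proximal tubule, fell by 1.65 ± 0.30. Of 20 genes of the primary cilium, the sensory organelle that resting cells build, 7 rose and 0 fell, with BBS9 higher by 1.24 ± 0.39, KIF3A, a motor subunit, by 1.16 ± 0.22 and DYNC2H1 by 0.86 ± 0.21. That count was 4 without the second 72 h array or without the first or second 24 h array. The cadherin, tight junction and cilium lists had 36.4%, 35.3% and 35.0% of their members called. Over all genes the share was 28.8%, with 13.6% higher and 15.3% lower.

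Growth factor, inflammatory and p53 lists had at most 28.6% of their members called, against 28.8% of all genes. Of 11 genes of the EGF family 3 rose and 0 fell. EREG, epiregulin, stood at 10.85, 10.96 and 11.12 at 72 h, against 8.74, 8.61 and 8.89 at 24 h, and BTC, betacellulin, rose by 2.34 ± 0.32 from background. ERRFI1, the feedback inhibitor of the receptor, rose by 0.87 ± 0.18, while EGFR had a difference of 0.19 (adjusted p = 0.497). Of 24 cytokine and NF-kB genes 2 rose (TNFAIP3 and CXCL3) and 4 fell. Of 21 p53 targets 5 rose and 1, DDB2, fell. The 5 were GDF15, GADD45A, SESN2, TNFRSF10B and CCNG1, of which the first 4 are also induced by ATF4 or CHOP.

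The remaining lists had between 12.5% and 54.5% of their members called. Of 27 lysosome and autophagy genes the calls were 7 higher and 2 lower, which leaves 18 without one, and the median was 0.11. WIPI1, an autophagosome factor, rose by 1.80 ± 0.30 and SQSTM1, an autophagy receptor, by 1.04 ± 0.19. AKR1C1, an aldo-keto reductase, averaged 5.33 ± 0.25 at 72 h and 7.74 ± 0.42 at 24 h, and of 23 NRF2 targets 2 rose and 5 fell. Of 14 clock genes 3 rose, among them PER2 by 1.33 ± 0.23, and 2 fell, among them PER3 by 1.10 ± 0.23. Of 16 glucose and FOXO genes 4 rose and 4 fell, of 18 ERK feedback genes 1 rose and 4 fell, and of 10 SOCS and STAT3 genes 1 rose and 4 fell, SOCS3 by 1.10 ± 0.20. Counts of rises and falls were 1 and 3 of 29 interferon genes, 2 and 3 of 22 YAP targets, 1 and 5 of 14 kidney injury genes, 2 and 4 of 11 glucocorticoid targets and 3 and 2 of 22 ribosome biogenesis genes. They were 1 and 2 of 10 histone genes, 2 and 1 of 10 gluconeogenic and fuel genes, 1 and 1 of 9 iron genes, 2 and 0 of 7 monocarboxylate carriers and 1 and 2 of 10 secretory genes. They were 1 and 1 of 12 tubular transporters, of 11 brush border genes and of 16 keratin and desmosome genes. These counts stand against 28.8% of all genes called.

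The same interval was measured in 6 arrays of low-dose cultures. They enter neither mean of the control comparison, but they belong to the 18 arrays that set its variances and the genes tested. There limma called 1686 genes (15.1%), 1141 (10.2%) higher and 545 (4.89%) lower at 72 h, and after quantile normalization 929 higher and 734 lower. Of the 1511 genes higher in controls, 563 (37.3%, or 49.3% of the low-dose list) were called higher there too. Of the 1702 lower in controls, 365 (21.4%, or 67.0% of the low-dose list) were called lower. ATF3 rose by 5.24 in low-dose cultures and 5.57 in controls (difference −0.33 ± 0.52, adjusted p = 0.793), while ALDH1L2 changed by 1.79 in low-dose cultures and 4.57 in controls (difference −2.78 ± 0.65, adjusted p = 0.0203). These differences are low dose minus controls. TXNIP changed by −6.21 in low-dose cultures and −5.99 in controls (difference −0.22 ± 0.48, adjusted p = 0.858).

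The difference between the intervals, low dose minus controls, was tested after the data had been seen, and 702 genes (6.3%) were called, 531 (4.77%) higher and 171 (1.54%) lower, or 448 and 255 after quantile normalization. Of 35 replication genes 26 had a higher interval in low-dose cultures and 0 a lower one. Their median change over time was −0.08 in low-dose cultures and −1.39 in controls. MCM10 changed by −0.45 in low-dose cultures and by −4.11 in controls (difference 3.67, adjusted p = 2.4e-07), and PCNA by 0.05 in low-dose cultures and −1.48 in controls (difference 1.53, adjusted p = 0.0014). Of 30 mitosis genes 24 fell in low-dose cultures too, against 4.89% of all genes called lower there. The median of the 30 was −0.94 in low-dose cultures and −1.81 in controls. The intervals differed for 7 of them, all higher at the low dose, including MKI67, with −0.89 in low-dose cultures and −2.41 in controls (difference 1.52, adjusted p = 0.0095).

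Of 20 ER genes 12 rose at the low dose and 19 in controls, against 10.2% and 13.6% of all genes called higher. In the test of the difference 10 of the 20 had a lower interval at the low dose and 0 a higher one. Their medians were 0.84 in low-dose cultures and 2.32 in controls. Over all genes that test called 4.77% higher and 1.54% lower at the low dose. HYOU1 rose by 1.17 in low-dose cultures and by 3.25 in controls (difference −2.08, adjusted p = 0.00348), and HSP90B1 had 0.48 (not called) in low-dose cultures and 2.06 in controls (difference −1.58, adjusted p = 0.0032). Among 28 ATF4 genes the difference was called for 4, all lower at the low dose. FASN changed by 0.31 at the low dose and −1.74 in controls (difference 2.05, adjusted p = 0.0193), and of 19 cholesterol synthesis genes 7 had a higher interval at the low dose. Of 10 metallothionein and zinc genes 0 differed.

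**Figure D3:**
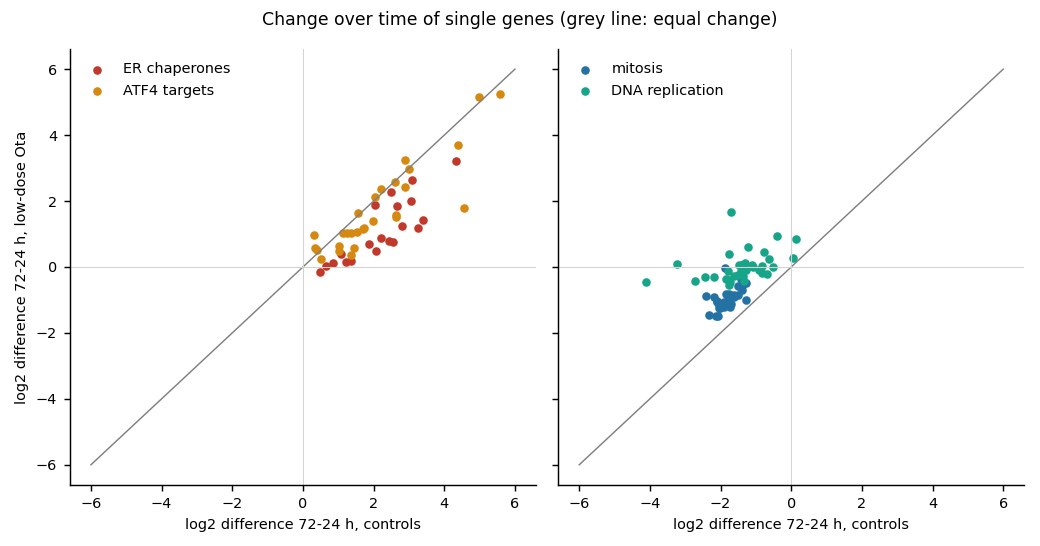
Log2 difference, 72 h minus 24 h, of single genes in low-dose Ota cultures (vertical axis) against controls (horizontal axis), ER chaperones and ATF4 targets on the left, mitosis and replication genes on the right. Points on the grey line changed equally; replication genes lie near 0 on the vertical axis (median −0.08) while their control changes centre on −1.39, and HYOU1 and other ER genes lie below the line.

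Control cultures of the other series were set beside those of Ota in a fit of all 36 control arrays. In this fit 4095 of 11124 genes (36.8%) were called in Ota controls, 3636 (32.7%, 15.5% higher and 17.2% lower) in CsA controls, 4395 (39.5%) in Fk and Ra controls and 4156 (37.4%) in CdCl and Di controls, the last 3 between 48 and 12 h. By contrast 29 (0.261%) were called in Aa controls and 21 (0.189%) in Nnm and Kbr controls, between 48 and 24 h. Of the genes called in Ota controls, 1225 of 1505 rises and 1446 of 1702 falls had the same sign in Aa controls. Over all 11124 genes, 5377 differences were positive and 5747 negative in Aa controls. Genes higher in Ota controls were called higher in CsA controls for 997 of 1505 (66.2%, or 58.4% of the CsA list). For falls this was 1132 of 1702 (66.5%, or 59.5% of the CsA list).

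The 3 series that share a 24 h time are set side by side. At 24 h TXNIP was at 10.36, 9.85 and 10.39 in Ota controls, 9.24, 9.72 and 9.41 in Aa controls and 9.14, 9.66 and 8.85 in Nnm and Kbr controls. HSPA5 at the late time stood at 15.29, 15.24 and 15.33 in Ota controls at 72 h, but at 12.59, 12.69 and 12.97 in Aa controls and 13.05, 12.65 and 12.91 in Nnm and Kbr controls at 48 h. In CdCl and Di controls it had reached 15.40, 15.44 and 15.20 by 48 h. Control cultures of different series thus stood at different HSPA5 levels at the same 48 h, with CsA controls at 14.85, 15.42 and 15.62.

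The Ota interval differed from the Aa interval in 1019 genes (9.16%), 485 (4.36%) higher and 534 (4.8%) lower, and from the Nnm and Kbr interval in 930 (8.36%), 475 (4.27%) higher and 455 (4.09%) lower. The Ota interval is 48 h long and the other 2 are 24 h long, so length and series cannot be told apart. ATF3 changed by 5.57 in Ota controls and by 0.32 in Aa controls (difference 5.25, adjusted p = 0.00129), and SDF2L1 by 4.34 in Ota controls and −0.67 in Aa controls (difference 5.01, adjusted p = 0.00332). TXNIP fell in each, by 5.99 in Ota controls and 2.84 in Aa controls. Of the 20 ER genes 18 had a higher Ota interval against Aa and 18 against Nnm and Kbr, and of 30 mitosis genes 26 and 24 had a lower one. These list changes were not limited to Ota controls. CsA, Fk and Ra, and CdCl and Di controls were compared between 48 and 12 h. There 18, 17 and 19 of the 20 ER genes were called higher, and 29, 29 and 30 of the 30 mitosis genes lower. Over all 11124 genes, 1721, 2259 and 1608 were called higher and 1915, 2136 and 2548 lower in these series. In the same order, ATF3 changed by 5.28, 5.45 and 5.52. BCAT1, the cytosolic branched-chain transaminase, changed by 3.39 in Ota controls and −0.76 in Aa controls. ITPKA, an inositol phosphate kinase, changed by 2.80 in Ota controls and −1.26 in Aa controls.

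**Figure D4:**
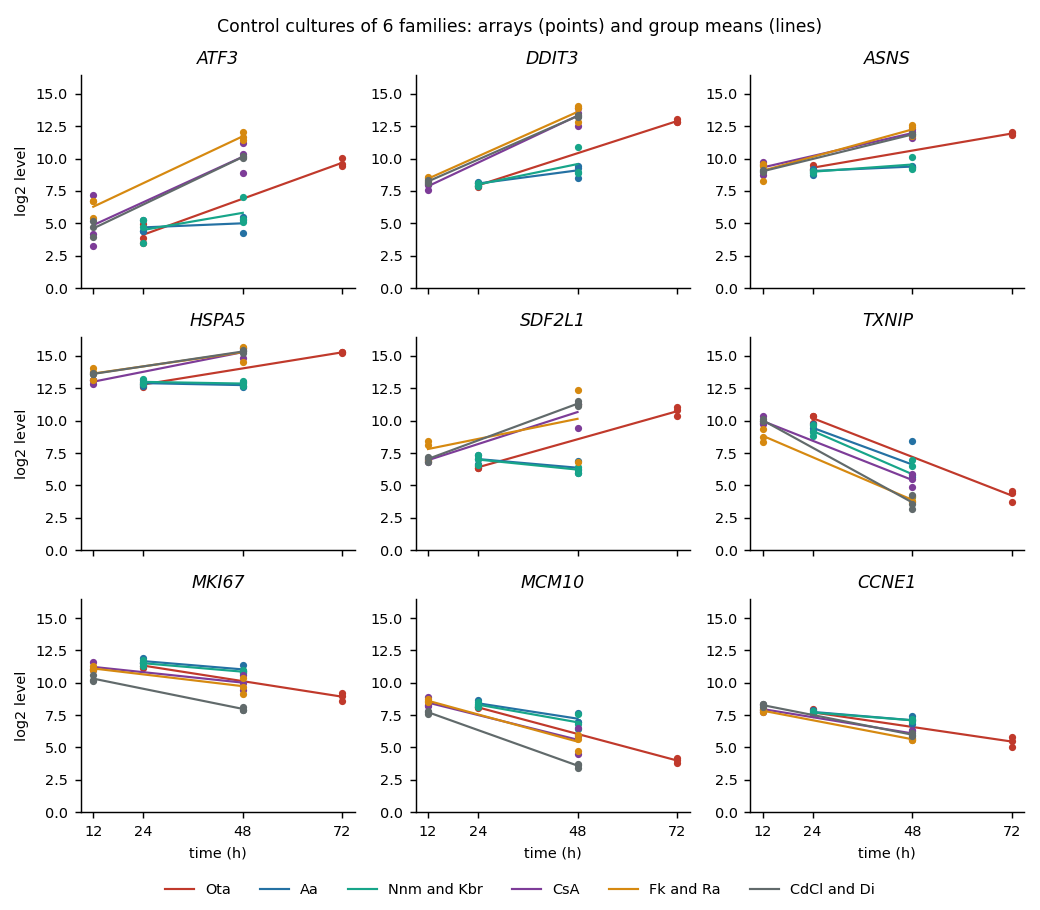
Log2 level (vertical axis) against hours of exposure to vehicle (horizontal axis) for 9 genes in the control arrays of 6 series. Points are arrays and lines join group means; HSPA5 stays near 13 in Aa and Nnm with Kbr controls to 48 h and ends above 15 in Ota controls at 72 h.

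**Figure D5:**
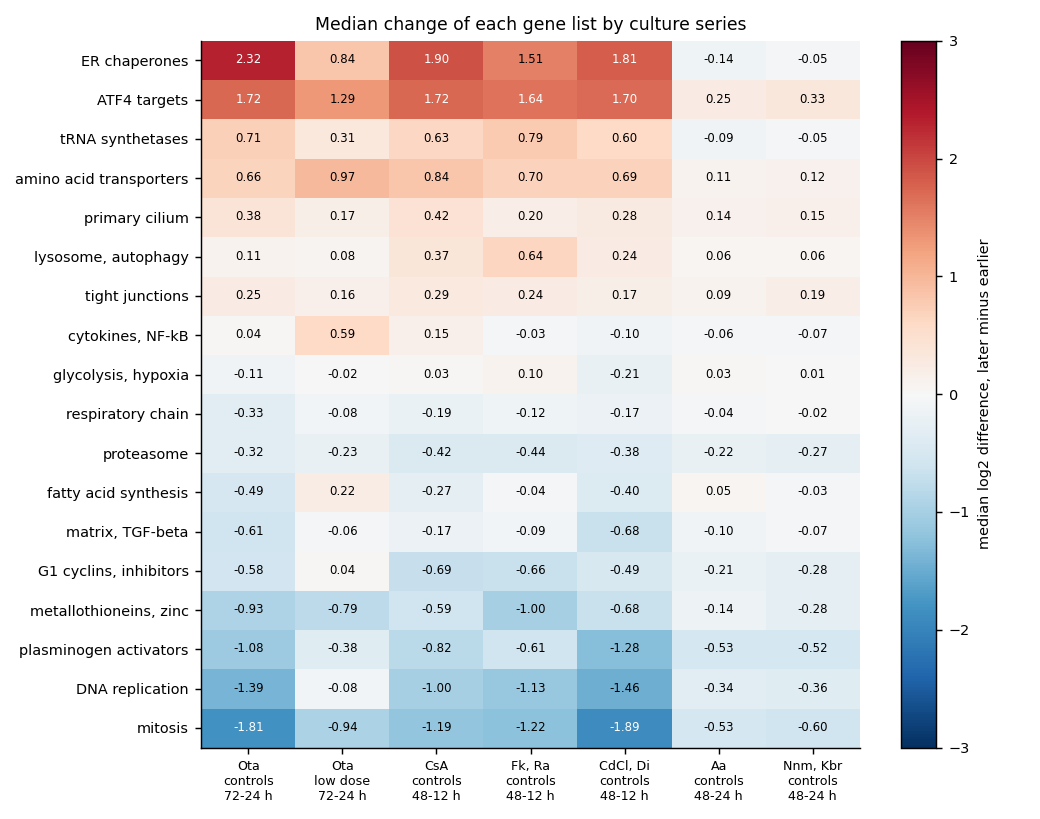
Median log2 difference, later minus earlier time, of 18 gene lists in 7 culture series, printed in each cell and coloured from blue (lower at the later time) to red (higher). ER chaperones read 2.32 in Ota controls, 0.84 at the low dose of Ota, 1.90 in CsA, 1.51 in Fk and Ra, 1.81 in CdCl and Di, −0.14 in Aa and −0.05 in Nnm and Kbr controls.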

How the data were processed

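Total RNA of HK-2 cultures was hybridized to 1-colour arrays, and the authors deposited log2 values of 54675 probe sets for 114 arrays. The submitters' processing notes name GCRMA, without a version, and per the labels' design text all arrays were normalized together. GCRMA corrects background by probe sequence, which holds dim probe sets near a floor and can widen changes of genes that start there. Scanner files were not used here. The number of arrays and, for dim genes, this floor limit the precision.

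Probe sets were named through the platform annotation: 41091 had 1 symbol, 1801 several, 11721 none, and 62 were controls. Each gene was represented by its brightest probe set, by mean level on the 114 arrays, giving 19775 genes. Genes above log2 4 on at least 3 of the 18 Ota arrays were tested (11138). limma 3.58.1 in R 4.3.3 fitted group means over these 18 arrays, with empirical Bayes variances and Benjamini-Hochberg adjustment at 0.05. Differences between control series came from a fit of 36 control arrays (11124 genes). The labels number biological replicates but do not say what separates them, so p-values measure the spread between these samples. Same-numbered control arrays correlated in their deviations by 0.238, 0.0782 and 0.169, and different-numbered ones by −0.261 to 0.0851. These values do not settle whether the numbers pair the samples. The main fit did not pair them, and a replicate block was among the alternatives.

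The members and the 41 lists (905 genes, of which 85 were not analysed here) were chosen with earlier results of these data known. Named genes were the 15 largest changes each way, up to 6 each way and up to 3 not called per list, and the 5 largest each way in each difference between series. Outside that rule, ASNS, ATF4, CHAC1, HSPA5, HSP90B1, XBP1, PPP1R15A, CCNB1, CDC20, CDC6, CDKN1A, CDK1, MCM2, MCM6, PCNA, SLC3A1, EPCAM, DCN and LUM, and the genes named for the low-dose difference, were chosen after their values were seen. Tested on simulated data of the same 11138 genes, the fit recovered 8.96%, 52.2% and 100% of genes shifted by 0.5, 1 and 2, with 6.14% of calls false. Only 67, 67 and 66 genes were shifted by these sizes, with independent normal noise. That is a far smaller share than the 28.8% called here, so these rates need not hold for the real comparison. Alternatives were the filter, probe set choice, normalization, arrays fitted, a replicate block and leaving out each array. Promoters came from RefSeq (GRCh38.p14).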

Additional observations from a re-analysis of the deposited data

Results flagged for a closer look

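Differences between culture series under the same kind of contrast drew attention, each by a test of the difference itself in limma with Benjamini-Hochberg adjustment. The Ota control interval (72 minus 24 h) differed from the Aa control interval (48 minus 24 h) in 1019 genes. It was higher for ATF3 (5.25), SDF2L1 (5.01), ALDH1L2 (4.33), BCAT1 (4.15) and ITPKA (4.06). It was lower for TXNIP (−3.14), MCM10 (−2.92), the sodium channel gene SCN3A (−2.73), CRYM (−2.62) and IL1B (−2.60). IL1B, an inflammatory cytokine, changed by −0.93 in Ota controls and by 1.67 in Aa controls.

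Against the Nnm and Kbr control interval 930 genes differed. SDF2L1 (5.12), ALDH1L2 (4.47), ATF3 (4.24), BCAT1 (4.07) and LURAP1L (3.84) were higher in Ota controls. MCM10 (−2.75), SCN3A (−2.69), AKR1C1 (−2.68), IL1B (−2.65) and TXNIP (−2.64) were lower. Length of interval and series cannot be told apart in either set.

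The low-dose interval differed from the control interval within the Ota series in 702 genes, a comparison chosen after seeing the data. The sialyltransferase gene ST6GALNAC5 (3.67), MCM10 (3.67), the polymerase alpha subunit POLA2 (3.39), the replication factor GINS4 (3.32) and KRT20 (3.18) were higher at the low dose. LAMP3 (−3.12), ALDH1L2 (−2.78), LINC01963 (−2.76), DSCAML1 (−2.76) and ADCY10P1 (−2.64) were lower. Counts of genes for these differences were refitted without each array in turn, as given below. The differences of the single genes named here were not.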

How the results depend on the processing

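The count of 3213 genes ran from 2297 without probe sets of the suffixes _x_at and _s_at to 4377 with only the 6 arrays fitted, and from 2447 to 2793 when 1 array was left out. With the replicate block it was 3456, so the pairing changed that count by under 1.5 times. Leaving out 1 array gave 777 to 1370 genes in place of 1686 for the low dose, with 1029 and 898 without its 72 h replicates 1 and 2 and 777 without its 24 h replicate 2. For the difference between low dose and controls it gave 352 to 597 in place of 702. The count was 352 and 433 without low-dose 72 h replicates 1 and 3, 460 and 365 without low-dose 24 h replicates 1 and 2, 388 and 425 without 72 h control replicates 1 and 3, and 421 and 427 without 24 h control replicates 1 and 3. Against Aa controls the range was 627 to 947 in place of 1019, with 627 without Ota 72 h replicate 3 and 663 without Aa 48 h replicate 3, and the replicate block gave 1668. Against Nnm and Kbr controls it was 549 to 874 in place of 930, with 549 without Ota 72 h replicate 3, 550 without Nnm and Kbr 48 h replicate 3 and 617 without 24 h replicate 3. There the replicate block gave 1597 and a fit of only the 12 arrays 1490. Without probe sets of the suffixes _x_at and _s_at, 6 of the tRNA synthetases and 5 of the amino acid carriers were called higher, in place of 10 and 8. HSPA4 (0.44) and THBS1 (0.0017) changed sign without probe sets of those suffixes, and LAMP2 (0.14) and RFC5 (−0.93) with the mean of all probe sets; the cause was not tested. Genes near background at either time have changes whose size is limited by signal over background.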
